A study of Drosophila melanogaster with 3 samples.

Results

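Serpin genes of Drosophila melanogaster were examined for peaks of the NF-κB factor Rel (Relish) in whole wandering L3 larvae. The members are the protein-coding genes whose symbol starts with Spn and a digit, 27 of the 13945 protein-coding genes on the annotated chromosome arms. The serpins nec and Acp76A carry other symbols and lie outside this rule. Chromatin immunoprecipitation followed by sequencing was carried out on a transgenic line that stably expresses Rel with GFP at its N-terminus. Males and females were pooled, and fragments of 200 to 800 bp were sequenced. The descriptions name an anti-GFP antibody, while the antibody field of the labels names Rel. The 3 samples are 3 biological replicates of 1 group, all of that genotype and stage. The labels give the age as unknown and do not say whether the line keeps its native Rel. No second condition was present, so genes were described by counts and ranks, with no test. Whole animals were used, so a peak cannot be placed in a tissue. The control that the labels point to was not analysed here.

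Serpins are protease inhibitors that act as suicide substrates: a protease cleaves the exposed reactive site loop and stays trapped in a covalent complex. In insect hemolymph they hold back the serine protease cascades that activate the Toll ligand Spätzle and prophenoloxidase, the enzyme precursor of melanization. Rel is the NF-κB factor that carries the signal of the IMD pathway into the nucleus. The pathway is switched on by bacterial peptidoglycan and controls antimicrobial peptide genes of the fat body and gut. Rel binds κB sequences, which have a run of G at one end and a run of C at the other.

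A peak was counted for a gene where a summit of the authors' optimal list lay within 1000 bp of any of its transcription start sites (TSSs). By that rule 13 of the 27 serpin genes (48.1%) had a Rel peak, beside 5288 of all 13945 protein-coding genes (37.9%). The difference from this background amounts to a few genes. The serpins with a peak were Spn27A, Spn28Dc, Spn42Da, Spn42Db, Spn42Dc, Spn42Dd, Spn42De, Spn43Ab, Spn55B, Spn77Ba, Spn88Ea, Spn88Eb and Spn100A. The genes Spn42Db and Spn42Dc shared a peak, so the strongest peaks of these 13 genes were 12 distinct ones. In rank by signal, the peaks of Spn27A, Spn77Ba, Spn42Da and Spn55B were among the top 1000 of 9419. The others ranked between 2353 and 8991.

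Stretches of the dm6 reference (RefSeq sequence, Release 6) are shown at serpins whose role in melanization is known. Each holds a full or near match to the κB consensus. Capitals mark the κB stretch of 10 bases, and each stretch is written 5′ to 3′. At Spn27A, which inhibits the activation of prophenoloxidase in hemolymph and the Toll-activating protease Easter in the embryo, the stretch is centred on the summit at chr2L:6673405-6673555, on the minus strand, from which the gene is read. Its capitals differ from the κB consensus by 1 mismatch, and their centre lay 12.5 bp from the summit. At Spn77Ba, which restrains melanization in the tracheae, the stretch is chr3L:20317455-20317484 on the plus strand, within the 5′UTR. Its capitals match the κB consensus, and their centre lay 19.5 bp from the summit. At Spn28Dc, which limits phenoloxidase activation, the stretch is chr2L:8007770-8007819 on the minus strand, from which the gene is read. Its capitals match the consensus, but their centre lay 324.5 bp from the optimal summit, outside the 100 bp used to count a match in a peak. Within that 100 bp the best stretch at Spn28Dc had 2 mismatches, with its centre 56.5 bp from the summit, and is not shown.
Spn27A: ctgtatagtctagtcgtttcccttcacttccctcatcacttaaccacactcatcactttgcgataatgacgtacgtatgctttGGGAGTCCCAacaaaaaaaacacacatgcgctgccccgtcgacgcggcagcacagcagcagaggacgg
Spn77Ba: taatatatgtGGAATTCCCCtcagtgcatt
Spn28Dc: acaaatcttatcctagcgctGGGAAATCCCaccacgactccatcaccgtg

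Each peak's height is the authors' own signal value and served here to rank the peaks of a list. The lists hold no read counts, so sequencing depth is unknown. The optimal list held 9419 peaks with signals from 191 to 20515 and a median of 383, and all of them were also in the pooled list at equal ranks. A replicate peak was matched to an optimal peak where the summits lay within 100 bp. The 3 replicate lists of 30000 peaks each held a match for 9058, 9043 and 9162 optimal peaks, with median signals of 120, 133 and 154. To set replicates on 1 scale, a relative signal was formed by dividing the replicate's signal by that median. Support was counted among the top 9419 peaks of each replicate.

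The 2 strongest serpin peaks lay at regulators of melanization. The Spn27A peak ranked 52 of 9419, 0.552% from the top, with a signal of 7603 and a width of 1064 bp. Its signals in replicates 1, 2 and 3 were 2100, 2730 and 2780, at ranks 47, 60 and 50. All 3 replicates placed it among their strongest peaks, and its relative signal was 18.7 ± 1.56 (SD, n = 3), the highest of the serpins. Its summit lay 133 bp upstream of the TSS of Spn27A (2L 6671065 to 6673347, minus strand). The replicate summits lay 118, 132 and 131 bp upstream, a spread far below the width of the peak. The summit also lies in introns of cup and of CG34310, whose nearest TSS was 484 bp away, so the peak is not exclusive to the serpin. Each replicate list held a weaker summit further upstream, at 317, 333 and 332 bp, with signals of 53.9, 514 and 368. That neighbour ranked 10885 in replicate 1 but 873 and 1551 in replicates 2 and 3, and the optimal list held no separate peak there.

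The Spn77Ba peak ranked 141, 1.5% from the top, with a signal of 4657 and a width of 1224 bp. Its signals in replicates 1, 2 and 3 were 919, 1850 and 1880. Replicate 1 was the lowest on the relative scale too, at 7.66 beside 13.9 and 12.2, and the mean was 11.2 ± 3.21 (SD, n = 3). The summit lay 260 bp downstream of the TSS in the 5′UTR of Spn77Ba (3L 20317190 to 20320116, plus strand), and the replicate summits lay at 260, 262 and 260 bp. The start of a noncoding antisense gene, asRNA:CR43875, lay 167 bp from the summit. The third melanization serpin, Spn28Dc (2L 8004548 to 8007210, minus strand), had a weaker peak of signal 665.9 at rank 2353, at the edge of the top 25%. Its signals were 154, 284 and 238 in replicates 1, 2 and 3, with replicate 2 highest, and its relative signal was 1.65 ± 0.432 (SD, n = 3). The summit was intergenic, 260 bp upstream of the TSS, with no other start within 1000 bp. A weaker pooled summit, of rank 12392, lay 459 bp upstream, 125.5 bp from the centre of the κB match. It had counterparts in replicates 1 and 2, of signals 24.1 and 61.0, and none within 1000 bp upstream other than the main summit in replicate 3.

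**Figure D1:**
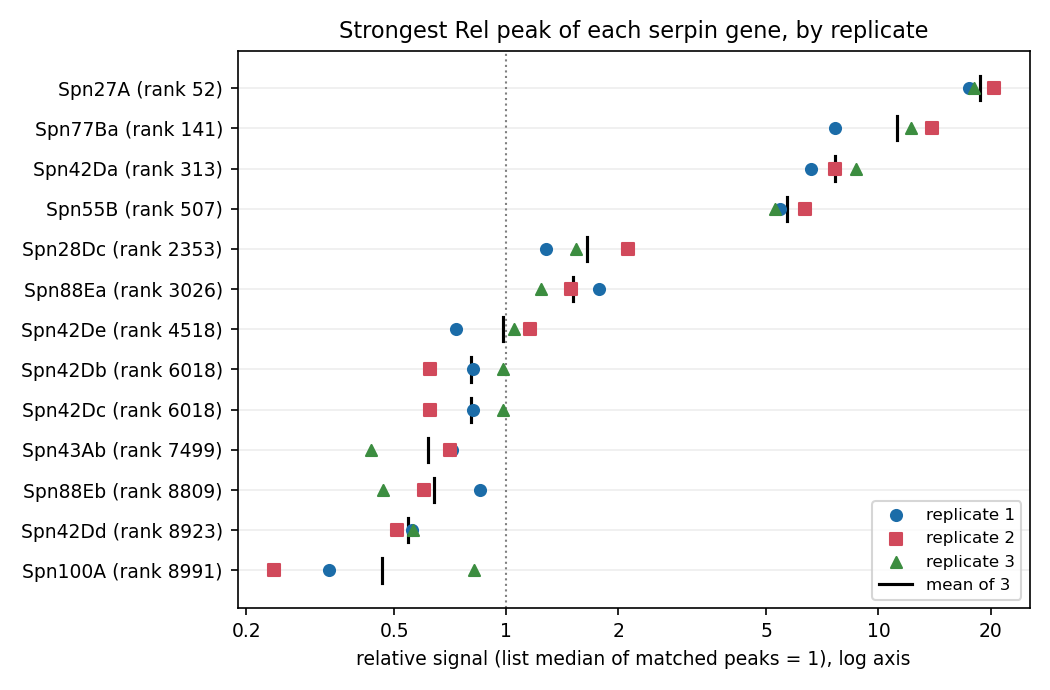
Relative signal (replicate signal over the median of matched optimal peaks, log axis) of the strongest Rel peak of each of the 13 serpin genes with a peak, in order of rank; symbols are the 3 replicates, black bars their mean, and the dotted line is the list median. Spn27A, Spn77Ba, Spn42Da and Spn55B lie above 5 in every replicate, while the genes below Spn88Ea lie near or below 1.

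The order of the serpin peaks was partly resolved by the replicates. The values of Spn27A, from 17.5 to 20.4, lay above all those of Spn77Ba. The values of Spn77Ba overlapped those of Spn42Da, which ran from 6.58 to 8.7. Within each replicate, however, Spn77Ba was the higher, at 7.66, 13.9 and 12.2 beside 6.58, 7.62 and 8.7. The values of Spn42Da lay above those of Spn55B, from 5.26 to 6.33, which in turn lay above every value of Spn28Dc. Spn28Dc and Spn88Ea overlapped. All values of Spn88Ea, from 1.24 to 1.78, lay above those of Spn42De, and from Spn42De downward each gene overlapped its neighbour in the order. The order between these neighbours was therefore not resolved. Some weak peaks further apart in the order were separated. All values of Spn42De, from 0.733 to 1.16, lay above those of Spn43Ab and Spn42Dd. Those of the peak shared by Spn42Db and Spn42Dc also lay above those of Spn42Dd. The values of Spn88Eb and Spn100A overlapped those of every other weak peak from Spn42De downward.

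Serpin genes lie in runs along the chromosomes. Members less than 20 kb apart formed 5 clusters of 14 genes, and 13 members stood alone. Of the 5 clusters 4 held at least 1 gene with a peak. No such count was made over runs of other genes, so 4 of 5 has no background here. A peak was found at 4 of the 13 single genes, Spn27A, Spn28Dc, Spn55B and Spn100A, beside 37.9% of all protein-coding genes. By arm, peaks were found at 2 of 8 serpins on 2L, beside 34.8% of all protein-coding genes of that arm, and at 7 of 11 on 2R, beside 41.4%. They were found at 1 of 4 on 3L, beside 38.4%, and at 3 of 4 on 3R, beside 38.3%. Neighbouring serpins on an arm are not independent, and the 42D cluster alone gave 5 of the 7 on 2R. None of the members lie on 4 or X.

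**Figure D2:**
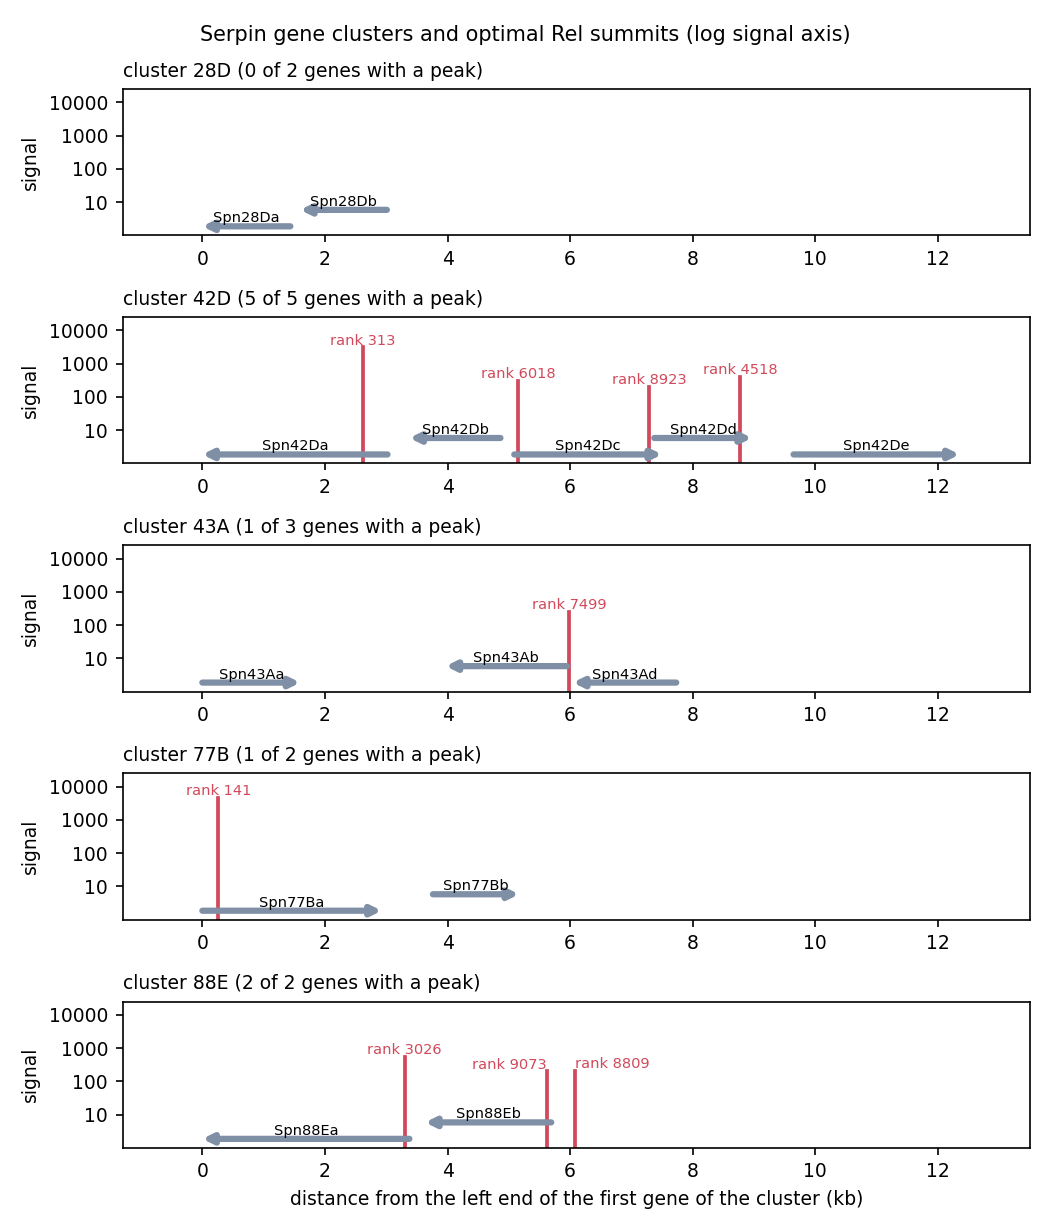
Maps of the 5 serpin clusters to a common scale: arrows are genes in their direction of transcription (their height has no meaning), and red lines are optimal Rel summits, with signal on a log axis and the rank in the list. All 5 genes of 42D and both genes of 88E have a summit within 1000 bp of a TSS, against 1 of 3 in 43A, 1 of 2 in 77B and 0 of 2 in 28D.

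In the 42D cluster, 5 genes within 12.4 kb on 2R (6875906 to 6888262), all 5 had a peak, through 4 distinct summits. The strongest was at Spn42Da (6875906 to 6878927, minus strand), an inhibitor of furin-type proprotein convertases with isoforms that differ in their reactive site loop. It ranked 313, 3.32% from the top, with a signal of 3108 and a width of 952 bp, and lay in the 5′UTR 111 bp downstream of the TSS. The signals in replicates 1, 2 and 3 were 790, 1020 and 1340, at ranks 356, 354 and 242, and the relative signal was 7.63 ± 1.06 (SD, n = 3). The other 3 summits of the cluster were far weaker. The peak shared by Spn42Db (6879285 to 6880770, minus strand) and Spn42Dc (6880995 to 6883407, plus strand) lay in the 5′UTR of Spn42Dc, 69 bp downstream of its TSS and 294 bp upstream of that of Spn42Db. These genes are read in opposite directions from starts separated by 224 bp, so this peak cannot be assigned to either. It had a signal of 307.2 at rank 6018, and 97.5, 83.1 and 151 in replicates 1, 2 and 3. All 3 replicates held it in their top 9419, with a relative signal of 0.804 ± 0.178 (SD, n = 3).

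The peak nearest to Spn42De (6885552 to 6888262, plus strand) lay in an intron of Spn42Dd, 870 bp upstream of the Spn42De TSS, just inside the 1000 bp limit. Its signal was 397.0 at rank 4518, with 88.0, 155 and 162 in replicates 1, 2 and 3 and a relative signal of 0.981 ± 0.222 (SD, n = 3). The Spn42Dd gene (6883280 to 6884873, plus strand) had a peak in the 3′UTR of Spn42Dc, with which it overlaps, 83 bp upstream of its own TSS. That peak was narrow, at 184 bp, and weak, with a signal of 204.4 at rank 8923. Its signals of 67.0, 68.1 and 86.4 gave a relative signal of 0.543 ± 0.0281 (SD, n = 3), even between replicates, but in replicate 2 its rank of 9517 fell outside the top 9419. In this cluster a strong peak at the leftmost gene thus stood beside 3 weak ones.

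The 88E cluster, 2 genes within 5.69 kb on 3R, had 3 summits. Spn88Ea (15203069 to 15206447, minus strand), a negative regulator of Toll signalling, had a peak of signal 547.2 at rank 3026, in its 5′UTR 76 bp downstream of the TSS. The signals were 214, 199 and 192 in replicates 1, 2 and 3, close together, with a relative signal of 1.51 ± 0.271 (SD, n = 3). The neighbouring Spn88Eb (15206703 to 15208762, minus strand) had a pair of weak peaks. The one of rank 8809 lay 393 bp upstream of its TSS but 49 bp from a TSS of Mau2. Its signals were 102, 80.5 and 72.1, with a relative signal of 0.64 ± 0.194 (SD, n = 3), and replicate 3 held it only at rank 10539. The one of rank 9073 lay 75 bp downstream of the Spn88Eb TSS in the 5′UTR, with signals of 17.2, 88.5 and 75, and only replicate 2 had it in its top 9419. So the peak that lies in Spn88Eb itself rested on fewer replicates than the one beside Mau2.

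The 43A cluster, 3 genes within 7.73 kb, had an optimal peak at Spn43Ab alone (2R 7151662 to 7153642, minus strand). It lay 30 bp upstream of the TSS in an intron of pk, with a signal of 247.2 at rank 7499. The signals were 85.7, 94.0 and 66.8, with a relative signal of 0.617 ± 0.159 (SD, n = 3), and replicate 3 held it at rank 11279, outside its top 9419. The other members of this cluster were just outside the limit: the nearest optimal summit lay 1025 bp from a TSS of Spn43Ad and 1298 bp from one of Spn43Aa, at ranks 4811 and 4504. Both of those summits were stronger than the one at Spn43Ab. In the longer pooled list, weak summits of ranks 16590 and 21649 lay within 1000 bp of Spn43Aa and Spn43Ad, and replicate 2 held none for either gene. In the 77B cluster the summit at Spn77Ba was also the optimal summit nearest to Spn77Bb, 3502 bp from the Spn77Bb TSS.

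Among the single genes, Spn55B (2R 18126347 to 18128210, plus strand) had the strongest peak after Spn27A. It ranked 507, 5.38% from the top, with a signal of 2250 and a width of 927 bp. The signals of 652, 844 and 812 lay at ranks 473, 466 and 549, and the relative signal was 5.67 ± 0.572 (SD, n = 3), with all 3 replicates close. The summit was intergenic, 169 bp upstream of the TSS, and a TSS of stau, which encodes an RNA-binding protein, lay 399 bp away. Replicate summits lay 136, 208 and 164 bp upstream, more scattered than at Spn77Ba. Spn100A (3R 30690642 to 30692768, plus strand) had the weakest strongest peak, with a signal of 202.4 at rank 8991, 830 bp upstream of its TSS. Its signals were 40, 31.6 and 126, so it was in the top 9419 of replicate 3 alone, and its relative signal was 0.463 ± 0.313 (SD, n = 3). Replicate 2 also held a summit 935 bp upstream at rank 10738, too far from the optimal summit to be matched. A summit nearer to the Spn100A TSS, 65 bp upstream, was in the pooled list at rank 11865, below the optimal list, and the 3 replicates held it at ranks 9894, 14689 and 28121.

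**Figure D3:**
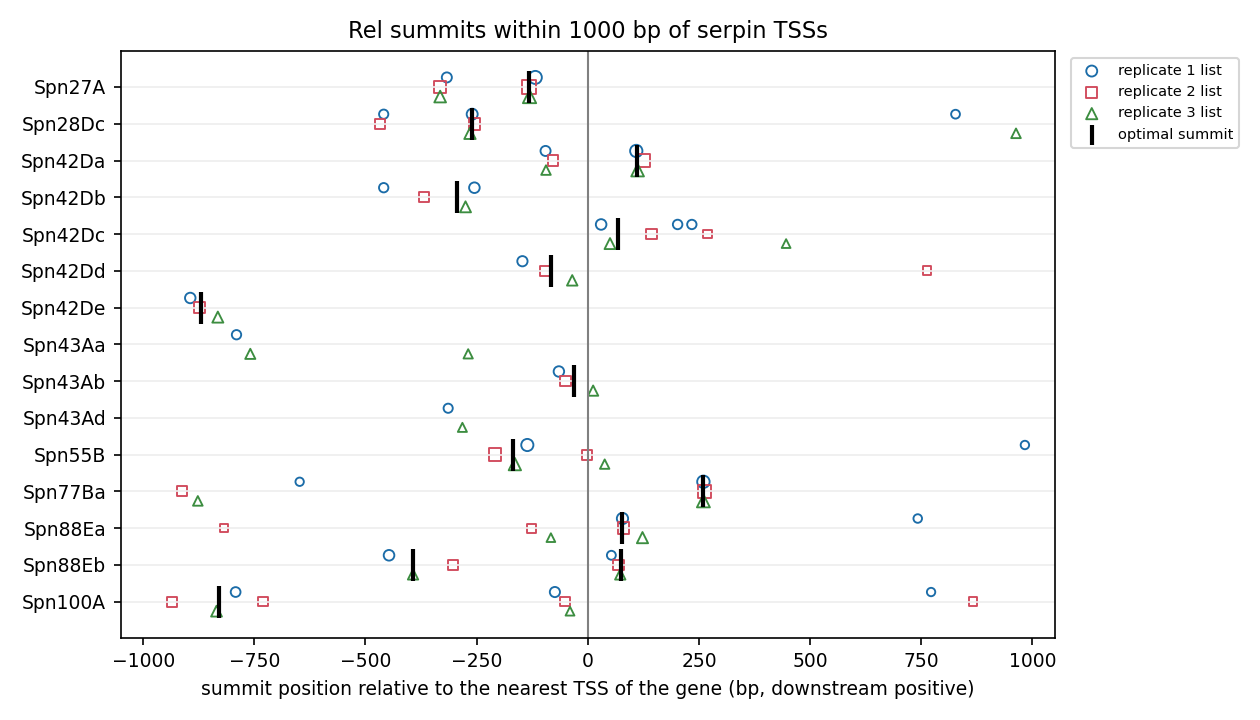
Position of every replicate summit within 1000 bp of a serpin TSS, in bp from the nearest TSS of the gene (upstream is negative); symbols are the 3 replicate lists, sized by the log of signal, and black bars are optimal summits. At Spn27A and Spn77Ba the main replicate summits coincide, while at Spn100A they scatter, and Spn43Aa and Spn43Ad have summits in replicates 1 and 3 only.

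By median rank, the serpin peaks did not stand high in the list. The median rank of their strongest peaks was 4518 (n = 13), beside 3782.5 over all 5288 genes with a peak. Both medians count a shared peak once per gene, so the peak of rank 6018 entered for Spn42Db and for Spn42Dc. With so few genes this raises the serpin median, and the gap between the medians is not read as a difference. The top 25% of the list held 5 of the 13 (38.5%), beside 33.0% of all genes with a peak. Rank 1000 or better was reached by 4 of 13, beside 16.0% of all, and the bottom 25% held 4 of 13, beside 17.3%. The serpin peaks were thus found at both ends of the list. The median distance of the strongest summit from a TSS was 169 bp, beside 137 bp over all genes with a peak. The summit lay upstream of the TSS in 9 of 13 (69.2%), beside 70.8%. It was also within 1000 bp of the TSS of another protein-coding gene for 5 of the 13 serpins, namely Spn27A, Spn42Db, Spn42Dc, Spn55B and Spn88Eb, beside 56.8% of all.

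A gene with more TSSs has more windows in which a summit can fall. Of the 23 serpins with 1 TSS, 10 had a peak, beside 30.9% of the 10246 protein-coding genes with 1 TSS. Of the 4 serpins with 2 TSSs, Spn42Da, Spn42Dc, Spn42De and Spn47C, 3 had one, and no share over all genes with 2 TSSs was computed. With a limit of 500 bp 11 serpins kept a peak, beside 33.5% of all genes, since the summits of Spn42De and Spn100A lay further out. With 2000 bp there were 15, beside 43.9%.

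Replicate support of the serpin peaks was close to that of other genes. The strongest peak was matched in the top 9419 of all 3 replicates for 9 of 13 serpins (69.2%), beside 72.0% of genes with a peak. The 4 others were Spn42Dd, Spn43Ab and Spn88Eb, matched in 2 replicates, and Spn100A, matched in 1. In the full lists, where many weak peaks enter, the serpin shares were near or below those of all genes. The pooled list of 30000 peaks had a summit at 15 of 27 serpins (55.6%), beside 53.6% of all genes. The full list of replicate 1 had one at 15 (55.6%) beside 56.3%, that of replicate 2 at 13 (48.1%) beside 56.4%, and that of replicate 3 at 15 (55.6%) beside 55.8%. Of the 14 serpins without an optimal peak, all but Spn43Aa and Spn43Ad had no summit within 1000 bp in any list. When only optimal peaks matched in the top 9419 of both other replicates were kept, 9, 10 and 11 serpins had a peak without replicate 1, 2 and 3, beside 30.8%, 30.8% and 29.7% of all genes. By this rule a peak matched in all 3 replicates cannot be lost, so only the 4 serpins with incomplete support could drop out. The median optimal rank over the serpins kept was 2353, 2689.5 and 3026 in turn, beside 3049, 3026 and 2936 over all genes kept.

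**Figure D4:**
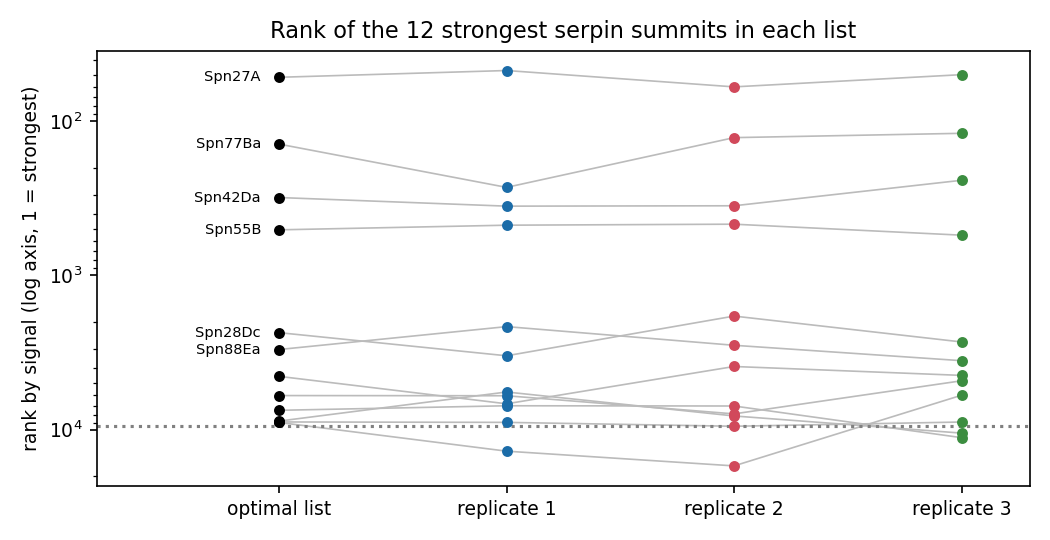
Rank by signal (log axis, strongest at the top) of the 12 distinct strongest serpin summits in the optimal list and at the matching summit of each replicate list; lines join the same summit, and the dotted line is rank 9419. The 4 leading summits stay within the top 549 in every list, while the weakest ones cross rank 9419.

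The κB consensus was searched on both strands, and a match describes letters and not a bound site. Within 100 bp of the strongest summit it was found for 2 of the 13 serpins, Spn55B and Spn77Ba (15.4%), beside 6.47% of all genes with a peak. A count of 2 genes does not set the serpins apart from that background. At Spn55B its centre lay 33.5 bp from the summit. Spn27A, with the strongest serpin peak, had no full match there. A planned looser form, with C or T allowed for its last C bases, was found for 3 of 13 serpins, beside 17.9%. With 1 mismatch allowed, an option chosen after seeing the data, 8 of 13 serpins had a match (61.5%), beside 33.6%. Those 8 were Spn27A, Spn42Da, Spn42De, Spn43Ab, Spn55B, Spn77Ba, Spn88Ea and Spn100A. Over the whole region within 1000 bp of a TSS, 4 of 27 serpins held a full match (14.8%), beside 2787 of all 13945 protein-coding genes. These 4, Spn28Dc, Spn42Dc, Spn55B and Spn77Ba, each had an optimal peak. The share with a peak among all genes with a match was not computed, so no link between match and peak is drawn. At Spn28Dc and Spn42Dc the match lay 324.5 and 852.5 bp from the optimal summit. The match at Spn42Dc lay 26.5 bp from a weak pooled summit of rank 23843.

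Other motifs at the strongest summits were counted for comparison. The GATA motif, GATAA on either strand, was found for 7 of 13 serpins, beside 44.4% of all genes with a peak. The element TATCGATA, common at promoters of broadly expressed genes, was found for 0 of 13, beside 7.24%.

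The 14 serpins without an optimal peak were Spn28B, Spn28Da, Spn28Db, Spn28F, Spn31A, Spn38F, Spn43Aa, Spn43Ad, Spn47C, Spn53F, Spn75F, Spn77Bb, Spn77Bc and Spn85F. Their distance to the nearest optimal summit ran from 1025 to 47339 bp, with a median of 5165.5 bp, beside 8918 bp over the 8657 protein-coding genes without a peak. The farthest were Spn47C at 47339 bp, Spn75F at 21006 bp and Spn53F at 12990 bp. Spn75F encodes a seminal fluid serpin. Several nearest summits belonged to other genes' starts. The summit nearest to Spn28Da and Spn28Db, at 3644 and 5219 bp, lay 18 bp from a TSS of CG34132. That nearest to Spn28B, at 5112 bp, lay 205 bp from RapGAP1, that nearest to Spn31A, at 3385 bp, lay 531 bp from Pen, and that nearest to Spn77Bc, at 6129 bp, lay 174 bp from eRF1. The remaining ones lay at 4172 bp for Spn85F, 6742 bp for Spn38F and 8022 bp for Spn28F. The 28D pair thus differed from Spn28Dc, which lies 114 kb away in the same band and had a peak.

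The serpin nec, which inhibits the Persephone branch of Toll activation, had a weak peak of rank 7580, 130 bp from its TSS, with a relative signal of 0.599 ± 0.187 (SD, n = 3). The seminal fluid serpin Acp76A had none, with the nearest summit at 5457 bp. Proteases and pathways that serpins act on were taken from lists chosen with earlier results of these data known. In the extracellular Toll cascade 9 of 18 matched genes had a peak, beside 37.9% of all genes and 13 of 27 serpins. Their median rank was 1005, beside 3782.5 over all genes with a peak. This list counts nec, itself a serpin, and Hayan, which is on the melanization list too. The recognition proteins PGRP-SA and PGRP-SD, at ranks 169 and 179, led this list, with relative signals of 10.6 ± 0.851 and 10.3 ± 1.52 (SD, n = 3). SPE, the protease that cleaves Spätzle, ranked 1328 with 2.6 ± 0.394, and easter, the target of Spn27A, had no peak and lay 4494 bp from the nearest summit. In the melanization list 5 of 8 had a peak, beside 37.9% of all genes, at a median rank of 3742, close to the 3782.5 of all genes with a peak. The protease Hayan ranked 1005, yellow-f 1112, MP1 3742 and Sp7 4234. The prophenoloxidase PPO3 had a weak peak of rank 7564, while PPO1 and PPO2 had none. All 8 genes from the Toll receptor to NF-κB had a peak, beside 37.9% of all genes, at a median rank of 2583.5, beside 3782.5, with the inhibitor cact at rank 250. Of the proprotein convertases, the targets of Spn42Da, Fur1 and amon ranked 1445 and 1921 and Fur2 had none. The relative signals of Spn27A lay above those of every listed gene in all 3 replicates, since the highest value among those genes was 11.6. Those of Spn77Ba, from 7.66 to 13.9, overlapped those of PGRP-SA, PGRP-SD, cact and, narrowly, GNBP3, from 5.68 to 7.75. That order was therefore not resolved.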

How the data were processed

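Rel-GFP ChIP-seq peak lists from 3 replicates, numbered as in the labels, were used. On dm6, the authors made peak lists from each replicate and from all 3 alignments together, each against a control library, per the file headers. They derived an optimal list by irreproducible discovery rate. The sources used here do not name the aligner, the caller or the threshold. Each list gives the deposited signal per peak and a deposited −log10 q-value, which was 4.43 for every optimal peak, so peaks were ranked by signal. Peak lists hold no read counts, and their number of replicates limits the precision.

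Genes and TSSs came from Ensembl release 115 and sequence from RefSeq Release 6, and coordinates are 1-based. A gene's strongest peak is that of highest signal. Computation used Python 3.11.15, pandas 2.3.3 and numpy 2.4.6, with figures in matplotlib 3.10.9, and the functions were tested on simulated data. Members, lists and rules were chosen with earlier results of these data known. Every member is named. Other genes are named where their TSS is near a member's peak or they are on a list. The symbols spheroide and Dox-A3 had no match. No test was run, since there is 1 group and genes are not replicates. Alternatives changed the TSS window, the match distance, the list, the motif, the gap that joins clusters and the replicates used.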

Additional observations from a re-analysis of the deposited data

How the results depend on the processing

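Counts depended most on list depth and on motif stringency. With the top 50% of the optimal list alone, 7 serpins kept a peak instead of 13. No share over all genes was set beside that count. With a TSS window of 500 bp the median rank of the strongest peaks was 3026 instead of 4518, with the peaks of Spn42De and Spn100A outside it. With 1 mismatch to the κB consensus allowed, a choice made after seeing the data, 8 serpins had a match instead of 2. The planned looser form of the consensus gave 3. Leaving out 1 replicate in turn, 9 to 11 serpins had a peak, which by the rule used means a match in both remaining replicates. The median rank over only the serpins kept, added after seeing the data, was then 2353, 2689.5 and 3026 without replicate 1, 2 and 3. Over all 13 serpins, ranked by mean relative signal in the other replicates, it was 3921 to 5047. The windows of 500, 2000 and 5000 bp gave 11, 15 and 19 serpins with a peak, beside 33.5%, 43.9% and 58.2% of all genes. RefSeq starts gave 13 serpins and the nearest-TSS rule 12. The relative signal of Spn100A was 0.285 without replicate 3, instead of 0.463, the only one to move by over 1.5 times. Joining clusters at 50 kb left 4 of 5 with a peak. It moved Spn77Bc, which had no peak, from the single genes into the 77B cluster. That gene lies 20.3 kb from Spn77Bb, just beyond the 20 kb limit. Depth is unknown, so weak peaks and absent peaks cannot be graded by reads.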
